A study of Mus musculus with 86 samples.

Results

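Small RNA from mouse testes at postnatal day 18 (P18) was deposited both without further selection and after enrichment for piRNAs, and the 2 kinds of library were compared here feature by feature. The comparison uses 5 of the 86 samples of the series, 3 not enriched and 2 piRNA-enriched, and joins the count tables on the names of all 24276 features that both tables list. All 5 libraries came from whole testes of mice of a C57BL/6 (B6) x 129/SvJ hybrid background that were heterozygous for *Btbd18*, a gene whose loss the series studies. No wild-type and no homozygous animal enters, so the heterozygous genotype is shared by both sides. Total RNA was extracted with TRI Reagent and turned into size-selected libraries with the same NEBNext small RNA kit on both sides. How the piRNAs were enriched is not given in the sources used here. Enrichment also coincides with the count table, so the treatment of the RNA and the preparation of the table cannot be told apart. The 8 heterozygous libraries of P10 and P14, 2 enriched and 2 not enriched at each age, were used for the spread between libraries and for the comparison of ages.

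piRNAs are small RNAs of germ cells that guide PIWI proteins. In pachytene spermatocytes most of them are cut from long transcripts of intergenic loci and are bound by PIWIL1 (MIWI) and PIWIL2 (MILI), and a smaller set comes from transcripts of protein-coding genes. The methyltransferase HENMT1 adds a 2′-O-methyl group to the 3′ end of a mature piRNA, whereas mammalian miRNAs, cut from hairpins by DICER1, keep an unmodified end. snoRNAs guide the modification of ribosomal RNA, the C/D kind (Snord genes) 2′-O-methylation and the H/ACA kind (Snora genes) pseudouridylation.

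The miRNA genes that the result turns on are shown first by their mature sequences, from RefSeq (GRCm38.p6), of which 17 of 20 named miRNA genes had one that could be used. Sequences run 5′ to 3′ and capitals mark the seed, bases 2 to 8. Mir881 (X:66801954-66801975, minus strand, for the 3p sequence) and Mir148a (6:51269829-51269850, minus strand) had the highest levels without enrichment. The let-7 genes Mirlet7g (9:106178846-106178867, plus strand), Mirlet7i (10:122985698-122985719, minus strand) and Mirlet7f-2 (X:151912353-151912374, plus strand) share the seed GAGGUAG. Mir10b (2:74726074-74726096, plus strand) and Mir547 (X:67988383-67988403, minus strand) were among the genes that lost least. Mir677 (10:128085291-128085312, plus strand) and Mir6236 (9:110281353-110281371, plus strand) were higher after enrichment. Counts are per hairpin gene and do not separate the 2 arms, so both arms are given where RefSeq holds both.
miR-881-3p: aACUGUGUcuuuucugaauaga
miR-881-5p: cAGAGAGAuaacagucacaucu
miR-148a-3p: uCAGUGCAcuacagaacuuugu
miR-148a-5p: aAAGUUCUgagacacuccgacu
let-7g-5p: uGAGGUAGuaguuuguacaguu
let-7g-3p: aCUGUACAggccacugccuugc
let-7i-5p: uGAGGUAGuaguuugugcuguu
let-7i-3p: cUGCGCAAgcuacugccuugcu
let-7f-5p: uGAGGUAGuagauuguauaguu
let-7f-2-3p: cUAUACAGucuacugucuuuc
miR-10b-5p: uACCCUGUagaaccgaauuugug
miR-10b-3p: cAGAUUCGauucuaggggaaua
miR-547-3p: cUUGGUACaucuuugagugag
miR-547-5p: cACUUGAGgauguaccaccca
miR-677-5p: uUCAGUGAugauuagcuucuga
miR-677-3p: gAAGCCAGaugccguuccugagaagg
miR-6236: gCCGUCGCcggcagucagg

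The libraries were deep and alike within each group. Totals were 19365439, 20310440 and 17683949 counts without enrichment (replicate 1, a library whose column carries no usable replicate number, and replicate 3) and 16461210 and 14517751 with it (replicates 1 and 2), and per-library values follow in that order throughout. Levels are CPM, counts of a feature scaled to the same total over all listed features in each library, so a fold is a change in a feature's share of all counts and not in molecules per testis. Pairs of libraries of the same group correlated at r = 0.986 to 0.990 across features on log2 CPM, which describes genes within libraries and carries no test. In whole testes, fewer cells of a type and less RNA per cell cannot be told apart. All 9 germ cell marker genes had counts in the libraries without enrichment, at 30.1 to 36.5 CPM summed, as had 6 of 7 marker genes of other testis cells, at 9.21 to 11.5 CPM, the leukocyte gene Ptprc being the 1 without a count.

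Enrichment left a library made almost wholly of intergenic piRNA locus counts. The 100 intergenic loci, named by chromosome band and a number, held 60.9%, 59.3% and 53.6% of counts without enrichment and 91.8% and 92.9% with it. The mean share was 57.9% ± 3.88 (SD, n = 3) against 92.3% ± 0.766 (SD, n = 2), a difference of 34.4 percentage points that is larger than the spread within either group. miRNA genes went the other way, from 11.5% ± 1.25 to 0.237% ± 0.0293, which is 48.4-fold lower. snoRNA genes went from 24.8% ± 2.42 to 1.64% ± 0.311, 15.1-fold lower. The 114 piRNA loci named after genes, called genic here, went from 0.600% ± 0.0396 to 1.04%, 1.74-fold higher. The class of other genes, which leaves out histone genes and other short noncoding RNA, went from 4.81% ± 0.270 to 3.60% ± 0.00768, a difference of -1.21 points that rests on Gas5, a host gene of C/D snoRNAs. Gas5 went from 2.63% to 0.0946% of counts, and without it the class went the other way, from 2.18% to 3.51%, a difference of 1.33 points. Histone genes went from 0.0126% to 0.0239% and other short noncoding RNA from 0.336% to 1.12%. In each of these classes the 3 values without enrichment and the 2 with it did not overlap. The exact permutation test (two-sided) gave p = 0.2 for each class, adjusted p = 0.2 over the classes, which is the smallest value that 3 against 2 libraries allow, so no class could pass a threshold of 0.05.

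**Figure D1:**
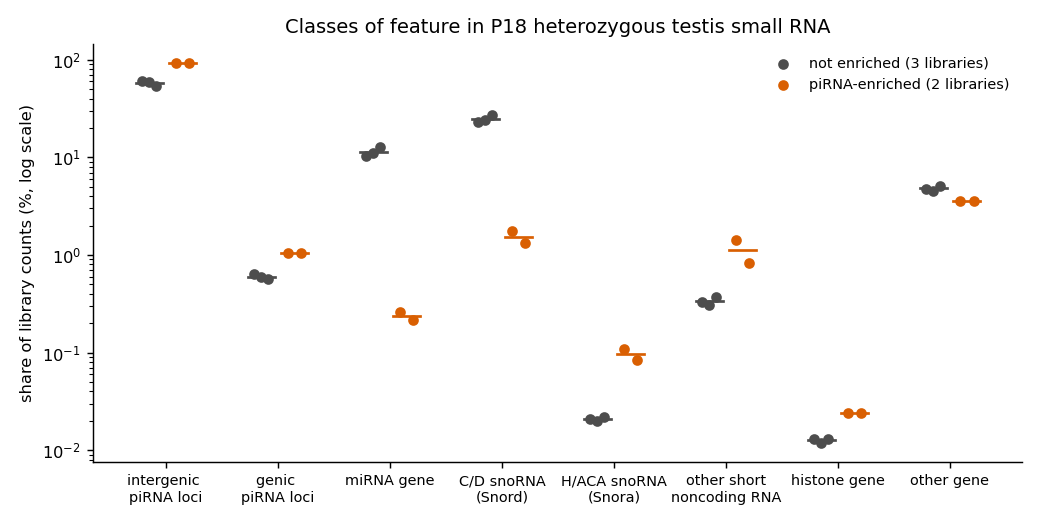
Share of library counts (percent, log scale) held by 8 classes of feature in P18 heterozygous testis small RNA. Each point is a library, short lines are group means, and other short noncoding RNA includes the ribosomal RNA precursor Rn45s. Intergenic loci hold 53.6% to 60.9% without and 91.8% to 92.9% with enrichment, while miRNA genes drop from 10.4% to 12.8% down to 0.216% to 0.258%.

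The balance between classes shows the same change without reference to the total. Each miRNA count was accompanied by 5.85, 5.34 and 4.17 intergenic locus counts without enrichment and by 356 and 430 with it. Per snoRNA count the values were 2.66, 2.46 and 1.94 against 49.3 and 65.4. The snoRNA class did not move as 1: the share of C/D snoRNAs was 16.1-fold lower with enrichment (9.53-fold without Snord2) and that of H/ACA snoRNAs 4.62-fold higher (2.72-fold without Snora31 and Snora7a). That split was chosen after the values were seen.

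The features were then tested one by one with edgeR's quasi-likelihood test, in a fit of all 13 heterozygous small RNA libraries that share 1 estimate of the spread. At an adjusted p (Benjamini-Hochberg) below 0.05, 108 of 13145 tested features were higher after enrichment at P18 (0.822%) and 257 were lower (1.96%). Leaving out any 1 of the 5 libraries brought the higher count to between 24 and 48. The lower count became 100 without enriched replicate 1 and 99 without enriched replicate 2. The spread in this fit takes in the P14 libraries, which differ widely within each kind: intergenic loci held 22.0% and 75.5% of their counts without and 47.4% and 88.8% with enrichment. The biological coefficient of variation was 0.517 in the 13 libraries, 0.175 without the P14 libraries and 0.143 in the 5 P18 libraries alone. In the 5 libraries alone, 5301 of 7563 tested features were higher (70.1%) and 334 lower (4.42%). Some features named below did not pass in the 13-library fit at all. Others passed there but not without enriched replicate 1 or enriched replicate 2. In those fits the lone enriched P18 library is assumed to vary like the other groups. Values below carry the 13-library test, and the 5-library test where it differs. An adjusted p without a label is from the 13 libraries. The ± on a log2 fold is its standard error, worked out from the F value of the fit whose adjusted p comes first.

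Most higher features shared a similar fold, so their sign depends on the scaling. The median log2 fold of all features tested in the 5 libraries was 0.88 on the share scale. TMM scaling, which takes the typical feature as unchanged, shifts the log2 folds by -0.88 and in the 5 libraries leaves 497 features higher (6.57%) and 605 lower (8.0%). Without any test, the 2 groups did not overlap in CPM for 5985 features that were higher (79.1%) and 360 that were lower (4.76%).

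**Figure D2:**
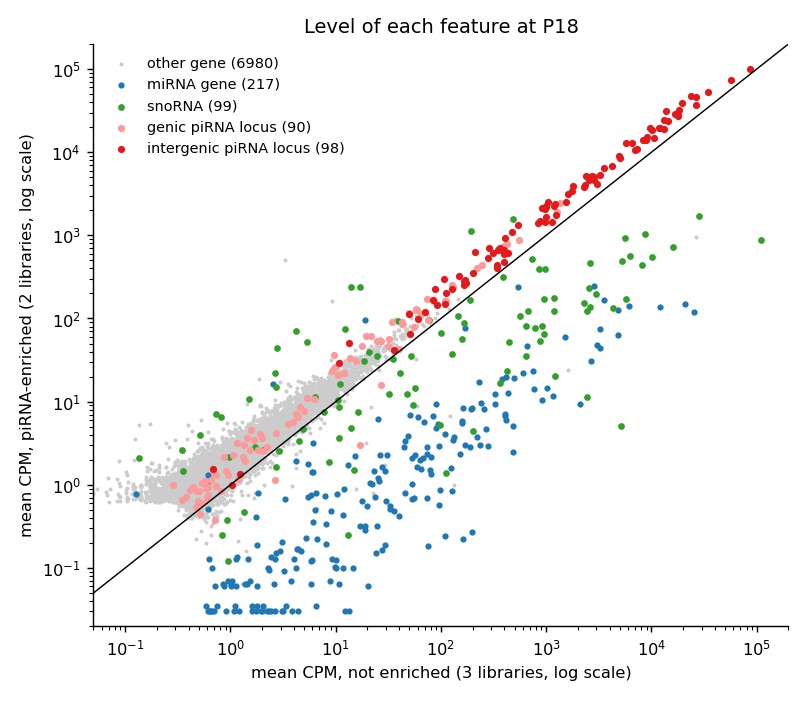
Mean CPM of each tested feature at P18 without enrichment (x, 3 libraries) and with it (y, 2 libraries), both on log scales, with the line of equality and with features at 0 left out. Intergenic loci (red) follow a band just above the line over their whole range, with a median log2 fold of 0.80 that turns to -0.07 under TMM scaling. miRNA genes (blue) lie far below the line, and snoRNAs (green) lie on both sides.

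Intergenic piRNA loci had nearly the same order with and without enrichment and were higher together, relative to the total. Of 99 loci tested, 0 passed in the 13-library fit with edgeR, where 1 had an unadjusted p below 0.05. With DESeq2 0 passed as well, but its scaling, like TMM, takes the typical feature as unchanged. It gave a median log2 fold of -0.12, so it does not test the share of the total. With edgeR on shares in the 5 libraries 89 of 98 were higher (90.8%, against 70.1% of all features) and 0 lower, and without the P14 libraries the count was 47 of 99. The median log2 fold of the loci in the 5 libraries was 0.80, with the middle 50% between 0.62 and 0.99, beside 0.88 for all features. Under TMM scaling of the 5 libraries 4 were higher and 5 lower, with a median of -0.07. The groups did not overlap for 96 of 98 loci, all higher after enrichment, against 79.1% of all features. Levels with and without enrichment had Spearman's rho = 0.994 across the 98 loci, a description of loci that share the same libraries, and the fold was only weakly related to level (rho = -0.141).

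The most abundant locus had a small gain. Locus 17-qA3.3-26735 had 88466, 79748 and 93215 CPM without and 98617 and 101441 CPM with enrichment. Its groups did not overlap, but the log2 fold was only 0.20 ± 0.16 (edgeR, adjusted p = 0.25 in the 5 libraries and 0.918 in the 13), and under TMM it was -0.66 with an adjusted p of 0.0191. Its part of the intergenic counts of a library, averaged over libraries, went from 15.1% to 10.8%. The second locus of that band, 17-qA3.3-27363, had 59018, 54111 and 58702 CPM without and 73548 and 74388 CPM with enrichment, a log2 fold of 0.37 (adjusted p = 0.0374 in the 5 libraries). Locus 9-qC-31469 had 36448, 35390.1 and 31562 CPM without and 51861 and 52544 CPM with enrichment. Its log2 fold was 0.60 (adjusted p = 0.00198 in the 5 libraries). For these 3 loci the fold turns negative under TMM scaling, at -0.66, -0.49 and -0.26 in the 5 libraries.

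Other abundant loci gained close to the typical amount. Locus 2-qE1-35981 had 27648, 29502 and 22057 CPM without and 46168 and 46378 CPM with enrichment (log2 fold 0.81, and -0.06 under TMM). Locus 6-qF3-28913 had 20875, 20969 and 16710.0 CPM without and 38718 and 38997 CPM with enrichment (0.99, and 0.13 under TMM), and 18-qE1-36451 had 25725, 27106 and 18889.7 CPM without and 47671 and 46650.1 CPM with enrichment (0.98, and 0.11 under TMM). In 14-qA3-19970 the gain was smaller, from 27916, 25801 and 25544 CPM to 35903 and 37372 CPM (0.47, and -0.39 under TMM). Intergenic counts were therefore spread over slightly more loci: the top 5 held 40.0% without and 34.6% with enrichment, the top 10 held 56.8% and 52.8%, and 50% of the counts took 8 loci against 10. The number of loci at 1000 CPM or more was 50 without and 60 with enrichment, and at 10 CPM or more it was 95 in both. Such numbers also depend on the share of the class as a whole, so they do not measure the spread among loci.

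The 4 largest folds among intergenic loci, picked after their values were seen, came at low levels. Locus 6-qC3-100 had 15.4, 16 and 8.71 CPM without and 50 and 51.3 CPM with enrichment, a log2 fold of 1.92 ± 0.20 (edgeR, adjusted p = 4.69e-09 in the 5 libraries and 0.165 in the 13). The log2 folds of 14-qC1-1010, 7-qD2-40 and 2-qE5-4 were 1.57, 1.49 and 1.44. These 4 loci were the 4 that stayed higher at an adjusted p below 0.05 under TMM scaling of the 5 libraries. Both 7-qD2-40 and 2-qE5-4 were abundant in younger testes: at P10 their mean level went from 1740.1 to 12999 CPM and from 163 to 1506 CPM with enrichment. They belong to only 3 loci with a higher level without enrichment at P10 than at P18. The median log2 fold of those 3 at P18 was 1.44, against 0.79 for the other 95. That median carries little weight, since 7-qD2-40 and 2-qE5-4 were picked for their folds. Across the 98 tested loci the fold had rho = 0.041 with the ratio of the P10 to the P18 level without enrichment. Among genic loci the median fold was 0.81 for the 72 with a higher level at P10 and 0.86 for the other 18. At the other end, 17-qC-935 had 1.34, 1.03 and 0.735 CPM without and 1.03 and 0.964 CPM with enrichment (log2 fold -0.06) and 4-qD3-2082 had 1.55, 1.18 and 0.961 CPM without and 1.40 and 1.31 CPM with enrichment, the 2 loci whose groups overlapped.

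**Figure D3:**
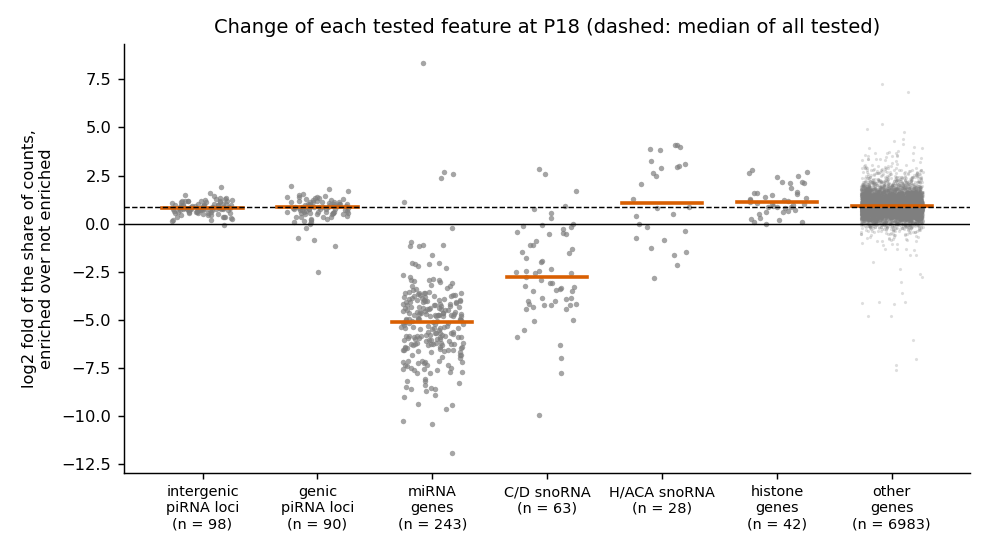
Log2 fold of the share of counts, enriched over not enriched, for every feature tested in the 5 P18 libraries, by class, with class medians in orange and the median of all tested features dashed (0.88). Intergenic and genic piRNA loci sit at the dashed line (medians 0.80 and 0.85), so their sign turns under a scaling that sets that line to 0. miRNA genes centre on -5.11, with genes at 0 after enrichment drawn at their fitted value.

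Genic piRNA loci also had folds near that of the typical feature, with 2 exceptions. In the 13-library fit 0 of 109 passed with edgeR (5 at an unadjusted p below 0.05). DESeq2, which takes the typical feature as unchanged, called 0 higher and 2 lower. In the 5 libraries 63 of 90 were higher (70.0%, the same as the 70.1% of all features) and 2 lower, with a median log2 fold of 0.85, and under TMM 6 were higher and 4 lower. Locus pi-Cbl, named after a ubiquitin ligase gene, had 1514, 1378 and 1182 CPM without and 2409 and 2432 CPM with enrichment (log2 fold 0.83, adjusted p = 0.000200 in the 5 libraries, and -0.03 under TMM). Locus pi-Zfp382, named after a zinc finger gene, had 1371, 1238 and 1158 CPM without and 1919 and 1894 CPM with enrichment (0.60, and -0.26 under TMM). The loci pi-Eif4ebp2, pi-Eif2c2 and pi-Zfp652 had log2 folds of 0.90, 0.89 and 0.86, which under TMM in the 13 libraries turn to -0.0029, -0.012 and -0.034. For these 5 the 2 enriched libraries lay above the 3 others. The exceptions were pi-Lpp and pi-Luzp1, named because they are the 2 that were lower. pi-Lpp had 18.4, 15.8 and 17.2 CPM without and 3.16 and 2.89 CPM with enrichment, a log2 fold of -2.50 ± 0.81 (adjusted p = 0.0958 in the 13 libraries and 2.54e-11 in the 5). pi-Luzp1 had 2.63, 2.61 and 2.66 CPM without and 1.46 and 0.827 CPM with enrichment. The entries Lpp, Luzp1 and Mir28, a miRNA gene within Lpp, were listed at 0 in all 5 libraries, and how reads of overlapping features were counted is not given in the sources used here.

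Long RNA of the same age gave a partial match to these levels. In 3 libraries of long RNA from P18 heterozygous testes, intergenic loci held 1.11% ± 0.148 (SD, n = 3) of counts and genic loci 0.278% ± 0.0225. Across all 100 intergenic loci the long RNA level and the enriched small RNA level had Spearman's rho = 0.648, and the level without enrichment had 0.653. Across 114 genic loci the values were 0.812 and 0.818. Neither quantity is per length here, and longer loci collect more of both. Per unit of long RNA (CPM against CPM), 17-qA3.3-26735 gave 163 of enriched small RNA, with a long RNA level of 612 ± 84.1 CPM. The ratio was 571 for 17-qA3.3-27363 and 585 for 9-qC-31469, so the most abundant locus was not the one with the highest ratio.

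miRNA genes were lost almost as a class. In the 13-library fit 217 of 318 tested miRNA genes fell and 4 rose, against 1.96% and 0.822% of all features. The lower count was 92 without enriched replicate 1, 94 without enriched replicate 2 and 291 of 327 without the P14 libraries. In the 5 libraries 237 of 243 were lower (97.5%) and 5 higher. Their median log2 fold in the 5 libraries was -5.11, or -4.76 with genes at 0 after enrichment set at a floor of 3 counts over both enriched libraries, and the middle 50% of genes lay between -6.32 and -4.07. Of the 126 genes at 10 CPM or more without enrichment, 123 were lower in mean CPM by over 4-fold and 104 by over 16-fold. After enrichment 30 genes were at 10 CPM or more, and 26 of the 243 had no count in either library.

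The depth of loss differed between miRNAs and changed which of them lead. Mir881, of an X-linked cluster of testis miRNAs, had 22384, 25599.8 and 27503 CPM without and 146 and 93.8 CPM with enrichment. It was the highest of all miRNA genes without enrichment and fell 209.9-fold (log2 fold -7.71 ± 1.47, adjusted p = 0.000419). Mir148a fell 139-fold, from 18316, 20378 and 23669.5 CPM to 162 and 137 CPM (adjusted p = 0.00433). Mir143, a smooth muscle miRNA, fell 89.1-fold (mean 12095 to 136 CPM), and Mir99a fell 38.2-fold (mean 4829.7 to 126 CPM). Mir34c, of a family switched on in meiotic germ cells, fell 21.2-fold, from 3431, 3886 and 3213 CPM to 168 and 162 CPM.

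Mir10b, which lies among the Hoxd genes, was the most abundant miRNA gene of the enriched libraries. It had 2628, 2545 and 3333 CPM without and 243 and 243 CPM with enrichment, 11.7-fold lower (adjusted p = 0.0988 in the 13 libraries and 3.09e-15 in the 5). The entry Mir3535 came next, at 472, 556 and 587 CPM without and 252 and 232 CPM with enrichment. It was only 2.22-fold lower (adjusted p = 0.441 in the 13 libraries and 1.00e-05 in the 5). RefSeq lists it as Gm24148 (1:86351981-86352127), within Ncl, which also holds Snora75 and Snord82, and gave no mature sequence that could be used. Whether its counts come from a mature miRNA was not tested. The top 5 miRNA genes held 60.2% of miRNA counts without and 39.6% with enrichment, and the levels of the 243 tested genes had rho = 0.820 between the 2 kinds of library.

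Among the strongest losses, Mir708 had 23.5, 22.9 and 36.6 CPM without and 0 counts with enrichment, at least 286-fold lower against the floor of 3 counts over both libraries (adjusted p = 4.52e-06). Mir381, of the imprinted Dlk1-Dio3 cluster, fell 731-fold (149.8, 142 and 193 CPM without and 0.304 and 0.138 CPM with enrichment), Mirlet7j 719-fold and Mirlet7f-2 445-fold. The weakest losses that passed in the 13-library fit were those of Mir18 (6.97-fold), Mir15b (7.45-fold) and Mir181c (7.63-fold). Genes with the same mature sequence differed in their loss: RefSeq gives Mirlet7f-1 and Mirlet7f-2 the same 5p sequence (let-7f-5p above), yet Mirlet7f-1 was 15.8-fold lower and Mirlet7f-2 445-fold. The levels of Mirlet7f-1 without enrichment were uneven, at 6.71, 5.56 and 57.7 CPM, and reads that match both genes can be split between them by the counting, so both values are uncertain.

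**Figure D4:**
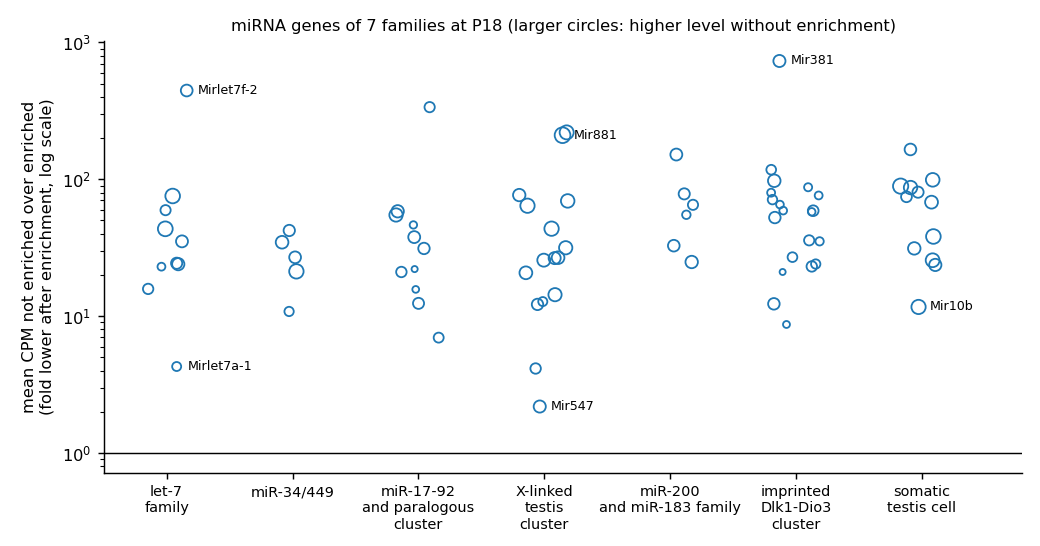
Fold by which each miRNA gene of 7 families was lower after enrichment (mean CPM without over with enrichment, log scale), 1 circle per gene tested in the 5 P18 libraries, leaving out genes at 0 after enrichment. Circle size grows with the level without enrichment. All circles lie above 1, from 2.19-fold for Mir547 to 731-fold for Mir381.

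All 7 miRNA families listed were lower after enrichment. In the 13-library fit 9 of 10 tested let-7 family genes fell, as did 5 of 5 of the miR-34 and miR-449 family. So did 11 of 13 of miR-17-92 and its paralogous clusters, and 14 of 16 of the X-linked testis list. In the other families 7 of 8 of the miR-200 and miR-183 families, 21 of 25 of the Dlk1-Dio3 cluster and 11 of 13 miRNAs of somatic testis cells fell. None of their members rose. Mirlet7b, Mirlet7c-2, Mir21 and Mir214, members of these lists, were listed at 0 in all 5 libraries and are not measured here. They are not the only members without counts. Without enrichment 16 of 21 genes of the X-linked list, 25 of 32 of the Dlk1-Dio3 list and 13 of 17 of the somatic testis list had any count. Median log2 folds ran from -4.73 (X-linked list) to -6.09 (somatic testis cells), beside 0.88 for all features tested in that fit. Summed over the X-linked list, levels were 34190 to 41323 CPM without and 432 to 536 CPM with enrichment. For the somatic testis list they were 22229 to 28054 and 556 to 666 CPM. Of 6 tested miRNAs of other tissues 2 fell (Mir144 and Mir155), with a summed level of 6.84 to 7.58 CPM without and 1.03 to 2.25 CPM with enrichment. The mirtron Mir877, cut from an intron without DROSHA, fell 52.6-fold (16, 14.3 and 20.2 CPM without and 0.364 and 0.276 CPM with enrichment), while Mir702 (0.310, 0.295 and 0.170 CPM without and 0.304 and 0.413 CPM with enrichment) and Mir1224 were barely counted.

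Within the X-linked list Mir547 stood out with 173, 162 and 169.8 CPM without and 77.4 and 76.4 CPM with enrichment. It was 2.19-fold lower where Mir881 was 209.9-fold lower and Mir741 220.1-fold. Mir547 (X:67988374-67988451) lies apart from Mir881 (X:66801944-66802021) and Mir741 (X:66796805-66796875), so it is not a member of their cluster by position. The adjusted p of Mir547 was 0.428 in the 13 libraries and 1.21e-05 in the 5. At P10 its mean level went up with enrichment, from 307 to 782 CPM. Mir3535 showed the same at P10, from 1300.2 to 2174 CPM. Mir547, Mir3535 and Mir677 were the only 3 of the 126 genes at 10 CPM or more that were not lower by over 4-fold. Replicate libraries did not always match in this list: Mir880 had 2.43, 547 and 603 CPM without enrichment. Mir743 had 216, 602 and 659.9 CPM, so the folds of both rest on the unnumbered library and replicate 3.

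A few miRNA entries were higher after enrichment. Mir677 had 19.1, 18.6 and 19.4 CPM without and 107 and 86.5 CPM with enrichment, a log2 fold of 2.35 ± 0.79 (adjusted p = 0.111 in the 13 libraries and 2.66e-12 in the 5). Mir6236 rose from 2.58, 1.92 and 3.05 CPM to 21.0 and 11.2 CPM (adjusted p = 0.0224). The other 3 that rose in the 13-library fit, named because they complete the count of 4, were Mir6239, Mir1291 and Mir6364. Mir1291 overlaps the H/ACA snoRNA gene Snora34 in RefSeq, so its counts may be shared with that snoRNA. Whether counts are shared was not tested. Mir6239 had 0, 0 and 1 counts without and 139 and 105 counts with enrichment (adjusted p = 1.78e-06).

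C/D snoRNAs were mostly lower, while H/ACA snoRNAs went both ways. In the 13-library fit 25 of 64 tested C/D snoRNAs fell and 1 rose (Snord8), and 11 of 31 H/ACA snoRNAs rose and 0 fell (16 at an unadjusted p below 0.05), beside 0.822% higher and 1.96% lower among all features. In the 5 libraries 6 of 63 C/D snoRNAs were higher and 51 lower, beside 70.1% higher and 4.42% lower among all features. Of 28 H/ACA snoRNAs 16 were higher (57.1%) and 7 lower (25%) in that fit. The median log2 fold in the 13 libraries was -2.86 for C/D snoRNAs and 0.85 for H/ACA snoRNAs, the latter beside 0.88 for all features. Under TMM the H/ACA median was -0.05, with 12 higher and 8 lower, and with DESeq2 it was -0.07, with 12 higher and 9 lower. Over all snoRNAs 27 of 104 fell and 13 rose. The lower count became 17, 15, 5 and 4 without replicate 1 or 3 of the libraries that were not enriched or replicate 1 or 2 of the enriched ones, and it was 61 without the P14 libraries.

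Snord2, a C/D snoRNA gene (chromosome 16, 23108953 to 23109020) within Eif4a2, was the most abundant of all features without enrichment, at 98311, 109562 and 121140.0 CPM. It fell to 998 and 749.8 CPM, 126-fold lower (log2 fold -6.97 ± 1.58, adjusted p = 0.00366). Snord95, within Rack1, fell from 5212, 4399 and 5744 CPM to 7.78 and 2.41 CPM (log2 fold -9.97 ± 1.49, adjusted p = 1.37e-05). Snord65 fell 216-fold, AF357359, a snoRNA within the imprinted Rian transcript, 132-fold, Snord64 80.3-fold, Scarna17 52.3-fold and Snord1b 46.0-fold. Gas5, whose introns hold several C/D snoRNAs, fell 27.8-fold (24666, 25191 and 29045 CPM without and 1117 and 776 CPM with enrichment, adjusted p = 0.0333), and Snord49a 21.8-fold (adjusted p = 0.0389). Snord68 was 16.4-fold lower but did not pass in the 13 libraries (adjusted p = 0.0769), and at 1964 and 1473 CPM it was the most abundant snoRNA of the enriched libraries.

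Against the class, 2 C/D snoRNAs were higher and ranked next: Snord58b at 475, 452 and 534 CPM without and 1849.8 and 1336 CPM with enrichment and Snord104 at 182, 183 and 213 CPM without and 1228 and 1049 CPM with enrichment. Neither passed in the 13-library fit (adjusted p = 0.336 and 0.160) and both did in the 5 libraries (5.52e-09 and 2.96e-13). Among H/ACA snoRNAs, Snora31 rose from 13.2, 13.9 and 15.3 CPM to 266 and 211 CPM, 16.9-fold (log2 fold 4.08 ± 0.86, adjusted p = 0.00147). Snora7a rose 14.0-fold (16.2, 15.8 and 19.6 CPM without and 266 and 216 CPM with enrichment), Snora62 16.7-fold and Snora23 16-fold. Each of the 4 had a larger fold than any tested piRNA locus, although H/ACA snoRNAs together held only 0.0962% of counts after enrichment.

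A small group of other genes also came up. Gbas (Nipsnap2 in RefSeq, chromosome 5, 129725016 to 129758327), a mitochondrial protein gene, rose 153-fold, from 3.87, 3.10 and 2.83 CPM to 476 and 524 CPM (log2 fold 7.25 ± 1.05, adjusted p = 8.02e-06). Lars2, a mitochondrial leucyl-tRNA synthetase gene, rose 17.7-fold, from 8.62, 7.43 and 11.6 CPM to 225 and 102 CPM (adjusted p = 0.00109). Rn45s, the ribosomal RNA precursor, was the most abundant feature outside the piRNA loci after enrichment, at 1908, 1768 and 2055 CPM without and 12961 and 7332 CPM with enrichment. Its adjusted p was 0.268 in the 13 libraries and 8.19e-12 in the 5, and the 2 enriched libraries stood well apart. Rmrp, picked after its values were seen, was level at 938, 845 and 1109.7 CPM without and 1069.8 and 847 CPM with enrichment. Of 63 tested histone genes 4 rose and 0 fell, beside 0.822% and 1.96% of all features, and in the 5 libraries 30 of 42 were higher (71.4%), close to the 70.1% of all features.

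Counts in the listed protein-coding genes were low, and the order of the lists by median fold depended on the fit. Of 25 tested genes of piRNA pathway proteins, 1 rose in the 13 libraries and 20 of 23 were higher in the 5 (where 70.1% of all features were), with median log2 folds of 0.94 and 0.96, beside 0.88 for all features. The 1 was Ddx4, the germ cell RNA helicase, at 1.19, 1.18 and 0.961 CPM without and 5.77 and 4.89 CPM with enrichment (adjusted p = 0.0401). Tdrd5, Asz1 and Piwil4, which also act in piRNA production, did not pass (adjusted p = 0.112, 0.165 and 0.198). Germ cell markers rose in 1 of 9 cases, again Ddx4, and 8 of 8 were higher in the 5 libraries, again beside 70.1% of all features, with a median log2 fold of 1.35. Markers of other testis cells summed to 9.21 to 11.5 CPM without and 10.5 to 11.4 CPM with enrichment. Their median log2 fold was 0.44 over 6 genes in the 13 libraries and 1.94 over the 2 genes tested in the 5 libraries. The first lies below and the second above the median of the germ cell markers. Of these markers only Clu, a Sertoli cell gene, rose in the 13 libraries (adjusted p = 0.00485). It went from a mean of 0.0681 CPM, which is very few counts, to 1.20 CPM. The Leydig cell gene Star had 9.55, 8.57 and 10.9 CPM without and 8.63 and 9.16 CPM with enrichment. Btbd18 itself had 1.39, 1.67 and 1.41 CPM without and 1.82 and 1.24 CPM with enrichment, a low level.

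Class shares differed by unequal amounts between the ages, differences that have no test of their own for shares. At P10, before pachytene loci are active, intergenic loci held 0.265% and 0.303% of counts without and 1.98% and 5.29% with enrichment, 12.8-fold higher in the mean, against 1.59-fold at P18. Leaving out enriched replicate 2 of P10 brings its fold to 6.96, and leaving out enriched replicate 1 to 18.6. miRNA genes were 12.9-fold lower at P10 and 48.4-fold at P18, and snoRNA genes 2.37-fold and 15.1-fold. The share of H/ACA snoRNAs was 4.2-fold higher at P10 and 4.62-fold at P18, or 2.31-fold and 2.72-fold without Snora31 and Snora7a. At P14 the folds rest on single libraries: leaving out 1 library at a time, that of intergenic loci ran from 0.902 (without replicate 1 of those not enriched) to 3.09 (without replicate 2 of them), around 1.40 with all 4. Other genes took 49.1% and 54.7% of enriched counts at P10 and 3.61% and 3.60% at P18, while intergenic loci took 91.8% and 92.9% at P18. Genic piRNA loci held 9.99% of enriched counts at P10 and 1.04% at P18.

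**Figure D5:**
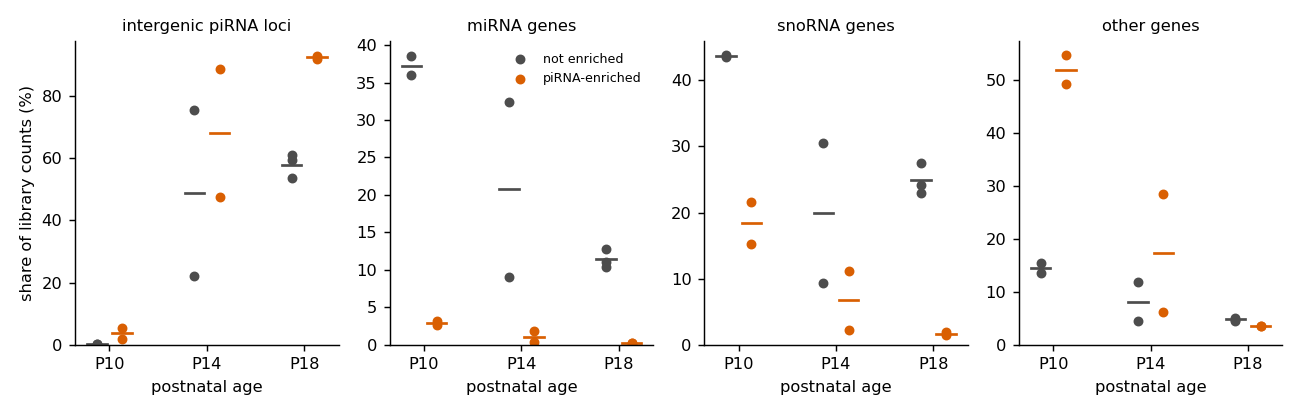
Share of library counts (percent) of 4 classes in heterozygous testes at P10, P14 and P18, 1 point per library with group means as lines, not enriched in grey and piRNA-enriched in orange. The 2 P14 libraries of each kind lie far apart, at 22.0% and 75.5% for intergenic loci without enrichment. At P18 the enriched libraries hold 91.8% and 92.9% intergenic locus counts.

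Tested feature by feature, the difference between ages did not pass. With edgeR on shares in the 13 libraries 0 of 13145 features were higher and 0 lower (0.00%) for the effect at P18 minus that at P10. There 3055 had p under 0.05 before adjustment. DESeq2, whose scaling puts the median difference of all features at -0.05, called 73 higher and 7 lower. With edgeR and RLE scaling, which uses the same factors, the counts were 43 and 0. On shares, intergenic loci had a median difference of -2.70 on the log2 scale, beside -1.78 for all features, and 49 of 99 had an unadjusted p below 0.05. Without the P14 libraries, again on shares, 50 of 13147 tested features were higher and 6785 lower in that contrast. For P18 minus P14 the counts were likewise 0 and 0 (0.00%), with 379 features at an unadjusted p below 0.05 and 30 higher and 11 lower with DESeq2. Among the features of smallest p in these contrasts, the spliceosomal RNA gene Rnu12 was higher after enrichment at P18 (10.5, 9.11 and 8.14 CPM without and 37.1 and 28.2 CPM with enrichment) and lower at P10 (mean 853 to 206 CPM). Rnu11 behaved alike, with means of 1.92 to 10.0 CPM at P18 and 217 to 107 CPM at P10, as did Scarna10, with 0.964 to 2.17 CPM and 126 to 19.5 CPM.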

How the data were processed

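The authors deposited raw read counts per feature, 1 column per library, in 1 table for small RNA and another for piRNA-enriched small RNA, and these counts were used as deposited. Per the submitters' processing notes, small RNA reads went through TopHat and featureCounts on mm10. Annotation, strand, multiple matches and overlapping features are not given in the sources used here, so paralogous miRNA genes, snoRNAs and their host genes may share reads. A P18 column matching no sample title was used as the unnumbered library of its group.

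Here, counts were divided by the total of all listed features (CPM) and tested with edgeR 4.0.16 in R 4.3.3 (filterByExpr, quasi-likelihood F test, Benjamini-Hochberg over all tested features, threshold 0.05) over 13 heterozygous libraries. The fit code was tried on simulated counts. For the 13-library fit their spread was set below that found here, so the trial does not bear on the calls. Alternatives were TMM and RLE scaling, totals without miRNA genes, DESeq2 1.42.0, no low-count filter, only the 5 P18 libraries, all 26 small RNA libraries, a replicate block and leaving out each P18 library. Leaving out the P14 libraries, TMM on the 5 libraries and the share of other genes without Gas5 were added after the data were seen. Class shares were compared with exact permutation tests (scipy 1.17.1). A fold against a group at 0 used a floor of 3 counts over the group (0.0968 CPM).

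Named features follow a rule: the 6 highest intergenic, genic and miRNA entries per group, the 4 largest and 4 smallest folds among those that passed at 10 CPM or more, 6 other features per direction by adjusted p and the 4 highest per group, 4 per direction in each age contrast, and up to 4 per gene list. A genic locus that the rule names is not reported here. Members and lists were chosen with earlier results of these data known. RefSeq (GRCm38.p6) symbols or synonyms matched 23918 features (98.5%). The labels do not say whether libraries came from separate animals, so p-values measure only the spread between these samples, which may be technical.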

Additional observations from a re-analysis of the deposited data

Results flagged for a closer look

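The share of counts in other genes differed in opposite directions at 2 ages. It was 37.4 percentage points higher with enrichment at P10, in both libraries (13.6% and 15.5% without, 49.1% and 54.7% with enrichment), and the difference was -1.21 points at P18, where both enriched libraries (3.61% and 3.60%) lay below all 3 others (4.57% to 5.10%). The opposite direction rests on the snoRNA host gene Gas5: without it the class went from 2.18% to 3.51% at P18, a difference of 1.33 points, and from 7.50% to 50.6% at P10, a difference of 43.1 points, both higher with enrichment. The difference between the ages was not tested.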

How the results depend on the processing

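Counts of features at P18 moved with the spread and the scaling. The higher count of 108 was 46 with totals without miRNA genes, 210 with all 26 libraries, 5301 with only the 5 libraries, 5797 without the P14 libraries, 497 in the 5 libraries with TMM, and 24 to 48 when single P18 libraries were left out. The lower count of 257 was 393 without the P14 libraries, 605 in the 5 libraries with TMM and 99 to 238 with single libraries left out. The 217 lower miRNA genes became 92 to 211 in the same leave-one-out fits and stayed within 1.5 times under all other alternatives. Higher intergenic loci numbered 0, and 89 with only the 5 libraries, 47 without the P14 libraries and 4 in the 5 libraries with TMM. The 27 lower snoRNA genes became 63 with TMM, 63 with RLE, 70 with DESeq2, 62 with only the 5 libraries, 61 without the P14 libraries, 71 in the 5 libraries with TMM and 4 to 18 with single libraries left out. For the effect at P18 minus that at P10, higher counts (0) were 39 with TMM, 43 with RLE, 73 with DESeq2, 1 without a low-count filter, 1 with 26 libraries and 50 without the P14 libraries, and lower counts (0) were 7 with DESeq2, 1 without a filter, 11 with 26 libraries, 6785 without the P14 libraries and 0 to 1 with single libraries left out. For P18 minus P14, higher counts were 20 with TMM, 19 with RLE, 30 with DESeq2, 1 without a filter and 1 with 26 libraries, and lower counts were 1 with TMM, 1 with RLE and 11 with DESeq2. The causes of these moves were not tested.

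Same-numbered libraries, the unnumbered one read as replicate 2, deviated together at P14 (correlation 0.765), weakly at P10 (0.109) and not at P18 (-0.0244 and -0.0409). Pairing was accepted only where all correlations were above 0.1, so the fit without the block was kept, although the P14 libraries enter its spread. A fit with the replicate block gave 3603 features higher at P18, 12 intergenic loci higher, 53 snoRNA genes lower, 34 higher and 5594 lower for P18 minus P10, and 32 higher and 45 lower for P18 minus P14. Mir1224, with at most 1 count in any P18 library, had a log2 fold of 0.34 with the block and -1.93 to 0.78 without 1 enriched replicate.

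With miRNA counts left out of the denominator, the share differences were 27.1 points for intergenic loci, 0.369 for genic loci, 0.00969 for histone genes, -1.83 for other genes and -26.4 for snoRNA genes. Without Gas5, an alternative added after the data were seen, the difference for other genes was 1.33 points. Other short noncoding RNA ranged from 0.494 to 1.08 points with single libraries left out. Abundant piRNA loci and Mir702, higher relative to the total, took negative log2 folds under other scalings, which set the typical feature to 0. Under TMM they were -0.69 (17-qA3.3-26735), -0.53 (17-qA3.3-27363), -0.44 (Mir702), -0.42 (14-qA3-19970), -0.30 (9-qC-31469), -0.29 (pi-Zfp382), -0.094 (2-qE1-35981), -0.064 (pi-Cbl), -0.034 (pi-Zfp652), -0.012 (pi-Eif2c2), -0.0029 (pi-Eif4ebp2). Under RLE they were -0.72 (17-qA3.3-26735), -0.55 (17-qA3.3-27363), -0.47 (Mir702), -0.45 (14-qA3-19970), -0.32 (9-qC-31469), -0.32 (pi-Zfp382), -0.11 (2-qE1-35981), -0.086 (pi-Cbl), -0.055 (pi-Zfp652), -0.034 (pi-Eif2c2), -0.025 (pi-Eif4ebp2), and with DESeq2, which uses the same factors, -0.72 (17-qA3.3-26735), -0.55 (17-qA3.3-27363), -0.46 (Mir702), -0.45 (14-qA3-19970), -0.32 (9-qC-31469), -0.32 (pi-Zfp382), -0.11 (2-qE1-35981), -0.086 (pi-Cbl), -0.055 (pi-Zfp652), -0.034 (pi-Eif2c2), -0.025 (pi-Eif4ebp2). With TMM in the 5 libraries they were -0.66 (17-qA3.3-26735), -0.49 (17-qA3.3-27363), -0.39 (14-qA3-19970), -0.26 (9-qC-31469), -0.26 (pi-Zfp382), -0.058 (2-qE1-35981), -0.029 (pi-Cbl). Depth limits the features with few counts after enrichment, 26 tested miRNA genes at 0 among them.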
